A study of Mus musculus with 4 samples.

Results

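Myosin light chains are the small subunits that wrap the lever arm of the myosin head. Each heavy chain carries an essential and a regulatory light chain, and phosphorylation of the regulatory one by a myosin light chain kinase tunes the force and speed of contraction. The isoforms mark chambers and muscle types: *Myl2* (regulatory) and *Myl3* (essential) belong to ventricle and slow skeletal muscle, *Myl7* (regulatory) and *Myl4* (essential) to the atria, *Mylpf* (regulatory) and *Myl1* (essential) to fast skeletal muscle, and *Myl6* and *Myl6b* are essential chains known from smooth and non-muscle myosin and from slow muscle. *Mylk3* is the kinase of cardiac muscle and *Mylk2* that of skeletal muscle. These 10 genes were taken as a family by name, and all probe sets to which the platform annotation gives one of these symbols alone were used, 13 of 45101 on the array. *Myl3* has 3 such probe sets, *Myl4* has 2 and each other gene has 1. A further 2 probe sets that list *Myl6* together with other genes were not used.

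Expression was profiled in hearts of 2 Jun delta mu (here Jun Δmu) and 2 Jun f/f mice, each 10 weeks old and each on its own Affymetrix Mouse Genome array, to ask which genes depend on c-Jun in unstressed heart muscle. The background was mixed, 129/Ola-C57BL/6, and all 4 mice carried floxed *Jun* alleles. The Jun Δmu mice also carried Cre recombinase driven by the creatine kinase promoter, which acts in striated muscle, so that the other cells of the heart keep *Jun*. The titles, source and methods give whole hearts, whereas the growth notes of the samples describe plated cells from digested ventricles, and this was not resolved. The samples were taken here as whole hearts. No label ties a replicate number to a litter or a batch, so the hearts were compared unpaired. The p-values and intervals rest on the spread between these 4 hearts, which the limma fit draws toward the spread typical of all probe sets. Values are RMA signals, which are background-corrected, normalized and on the log2 scale, and a difference of 1 is a 2-fold change in signal.

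The targeted gene followed the labels. The brighter probe set of *Jun* stood at 7.02 and 7.14 on the Jun Δmu arrays and at 8.30 and 9.00 on the Jun f/f arrays, and the other at 6.58 and 6.86 in Jun Δmu against 7.78 and 8.15 in Jun f/f hearts. Array medians lay between 5.45 and 5.47. The array of Jun f/f replicate 1 was the odd one out: 104 probe sets lay over 2-fold away from the average of the remaining arrays there, and 24 to 33 on each of the others. All 8 measured marker genes of working heart muscle, such as *Myh6* and *Tnnt2*, were bright on every array, and the fast skeletal heavy chains *Myh1*, *Myh2* and *Myh4* lay below the array medians on all 4.

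By an unadjusted p, a single member, the fast skeletal *Myl1*, was called higher in Jun Δmu hearts. No member was called after adjustment. A probe set was said to pass when the genotypes differed by more than 1.3-fold, the fold threshold in the methods, with an unadjusted p under 0.05 from limma. The probe set of *Myl1* passed as higher, which is 1 of 13 member probe sets, where 0.568% of the 45037 probe sets tested passed as higher. None of the 13 passed as lower, where 0.959% of all did. At an adjusted p under 0.05 (limma, Benjamini-Hochberg, all probe sets tested) 0 members and 0% of all probe sets were called. Of the 45037 probe sets, 2326 had an unadjusted p under 0.05, close to the share that this cut-off gives where nothing differs. The median difference of the 13 was 0.07, against 0.00 for all probe sets tested, and 7 of the 13 differences were above 0. The groups did not overlap for 6 of the 13. Both Jun Δmu arrays were the higher ones in 5 of these, where this held for 17.3% of all probe sets, and the lower ones in 1, where this held for 16.7%.

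**Figure D1:**
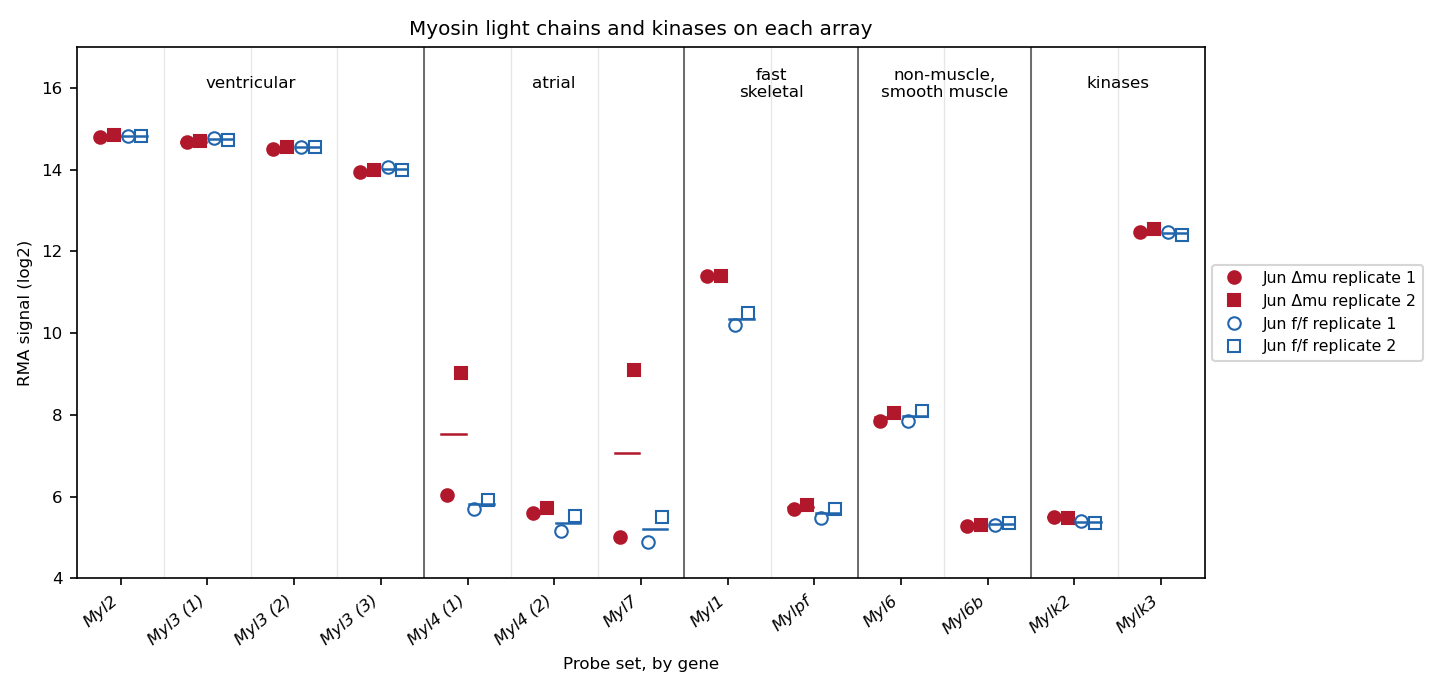
RMA signal (log2) of the 13 probe sets of the 10 genes on each of the 4 arrays, by class of isoform; filled red symbols are Jun Δmu and open blue symbols Jun f/f hearts, circles replicate 1, squares replicate 2, and short lines the group means (a number after a gene counts its probe sets from the brightest). Myl7 and the brighter Myl4 probe set are high on Jun Δmu replicate 2 alone, Myl1 is near 11.39 on both Jun Δmu arrays, and the ventricular probe sets lie together at 13.94 or above.

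*Myl1* gives rise, through alternative first exons, to a long and a short essential light chain of fast skeletal muscle. Its signal was 11.39 on both Jun Δmu arrays, against 10.21 and 10.48 on the Jun f/f arrays. The Jun Δmu hearts thus lay together, above both Jun f/f hearts. The difference was 1.04 (standard error 0.12), a 2.06-fold higher signal with a 95% interval of 1.68 to 2.53, at an unadjusted p = 0.000197 and an adjusted p = 0.896 from limma. Leaving out any single array kept the difference between 0.91 and 1.18, and without Jun f/f replicate 1, the odd array, it was 0.91. By size of difference in either direction it ranked 30 of 45037. The study had picked this probe set from the same arrays, as it had those of *Casq1* and *Mybpc2* below, so these values are no independent evidence.

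The bases before the start of *Myl1* are shown because this member moved between the genotypes, and those of *Myl6b* because they hold the match to the AP-1 site, the site bound by c-Jun, that was found among the members. Sequences are from RefSeq on GRCm38.p6, 250 bases before an annotated start site, 5′ to 3′ in the direction of the gene. Both strands were searched for the AP-1 site, spelled TGANTCA. The related CRE was spelled TGACGTCA. The E-box, the site of MyoD-type factors, was spelled CANNTG. The site of GATA factors was searched as AGATAA, and the MEF2 and CArG sites by their usual degenerate letters. Capitals mark the matches:
Myl1, chr1:66945057-66945306, minus strand: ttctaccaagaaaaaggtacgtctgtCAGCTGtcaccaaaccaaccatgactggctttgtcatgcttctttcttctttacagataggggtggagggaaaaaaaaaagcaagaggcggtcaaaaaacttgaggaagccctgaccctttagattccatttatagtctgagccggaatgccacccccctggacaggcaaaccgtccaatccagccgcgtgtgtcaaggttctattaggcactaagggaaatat
Myl6b, chr10:128498686-128498935, minus strand: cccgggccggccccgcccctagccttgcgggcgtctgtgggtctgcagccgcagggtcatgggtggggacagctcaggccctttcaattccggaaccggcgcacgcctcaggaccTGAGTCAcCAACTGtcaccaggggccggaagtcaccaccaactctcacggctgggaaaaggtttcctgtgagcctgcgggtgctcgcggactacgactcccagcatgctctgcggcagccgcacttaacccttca

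Windows were found for 9 of the 10 genes, 12 windows in all, and none for *Mylk2*. The AP-1 letters were in 1 of the 12 windows, that of *Myl6b* (first base at -135 from the start), and in 6.75% of all 32851 windows in the table. The *Myl6b* signal differed by -0.02 between the genotypes. The window of *Myl1* held an E-box, which 9 of the 12 member windows and 66.2% of all windows hold, and none of the other motifs. Only 1 window was found for *Myl1*. Which of its alternative first exons it precedes was not determined, and no other start was searched. The CRE was in 1 member window, of *Myl6*, and in 1.55% of all windows. The GATA letters were in 2 of the 12, of *Myl2* and *Mylk3*, and in 9.99% of all. A match is a run of letters and not a shown binding site.

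*Mylpf*, the regulatory light chain that pairs with *Myl1* in fast muscle, did not pass. Its signal was 5.70 and 5.80 in Jun Δmu hearts and 5.47 and 5.70 in Jun f/f hearts, near the median of each array, and the groups overlapped. The difference was 0.17, with a 95% interval of -0.12 to 0.45. Among 12 marker genes of fast skeletal muscle, 0 passed as higher and 2 as lower, with a median difference of -0.09, 4 of them above 0. The list shares *Myh1*, *Myh2* and *Myh4* with the heavy chains described further on. *Casq1*, the calcium store protein of fast fibres, had 5.49 and 5.75 in Jun Δmu hearts against 6.89 and 7.39 in Jun f/f hearts, a difference of -1.52. *Mybpc2*, the fast form of myosin binding protein C, had 5.26 and 5.42 in Jun Δmu hearts against 7.82 and 7.45 in Jun f/f hearts, a difference of -2.30. Both genes thus fell where *Myl1* rose. Skeletal actin (*Acta1*) had 9.74 and 10.71 in Jun Δmu hearts against 10.75 and 11.30 in Jun f/f hearts. The difference was -0.80 and did not pass. *Acta1* was lower on both Jun Δmu arrays, as was *Myh2*, at 4.98 and 5.09 against 5.14 and 5.15. By quantitative RT-PCR, the paper reported lower *Mybpc2* and *Acta1* in unstressed Jun Δmu hearts. The fast troponin subunits *Tnni2* and *Tnnc2* were higher on both Jun Δmu arrays, without passing. Of all probe sets, 17.3% were higher and 16.7% lower on both Jun Δmu arrays. *Tnni2*, the inhibitory subunit, had 6.83 and 6.57 in Jun Δmu hearts against 6.31 and 6.40 in Jun f/f hearts, a difference of 0.34, below 1.3-fold. *Tnnc2*, the calcium-binding subunit, had 5.04 and 5.16 in Jun Δmu hearts against 5.00 and 4.97 in Jun f/f hearts.

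**Figure D2:**
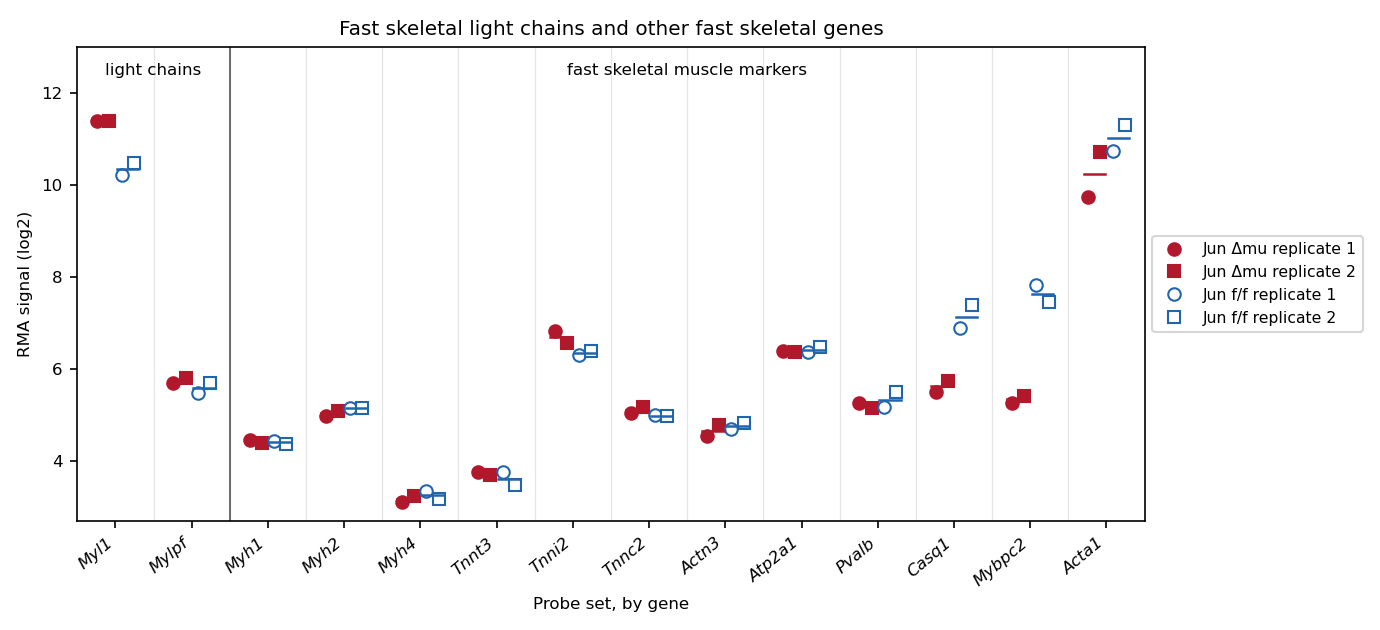
RMA signal (log2) on each array of the fast skeletal light chains Myl1 and Mylpf, left of the line, and of 12 fast skeletal marker genes by their brightest probe set, with symbols as for the members. Myl1 lies higher in both Jun Δmu hearts and Casq1 and Mybpc2 lower, while the heavy chains Myh1, Myh2 and Myh4 stay at or below 5.15 on all arrays.

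The 5 genes whose profile over the 4 arrays was closest to that of *Myl1*, by the distance between values centred on each gene's mean, were *Lad1* (distance 0.09 on the log2 scale), *Pygl* (0.21), *Tmprss13* (0.22), *3110040M04Rik* (0.35) and *Pm20d1* (0.38). With 4 arrays, any gene that is higher in both Jun Δmu hearts by about the same amount comes close. *Myl1* lies on chromosome 1. Of the 10 measured genes next to it there, 5 on each side and chosen after the values of *Myl1* were known, 0 passed, with differences between -0.31 for *Map2* and 0.18 for *Erbb4*. The direct neighbours *Acadl* and *Lancl1* differed by -0.05 and 0.00.

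The atrial light chains were high in 1 of the Jun Δmu hearts. *Myl7* stood at 5.02 and 9.11 on Jun Δmu replicates 1 and 2, against 4.88 and 5.51 in Jun f/f hearts. The brighter probe set of *Myl4* stood at 6.03 and 9.02 on Jun Δmu replicates 1 and 2, against 5.69 and 5.93 in Jun f/f hearts. Jun Δmu replicate 2 was thus far above the other 3 hearts for both genes, by 3.97 for *Myl7* (15.7-fold) and 3.14 for *Myl4* (8.82-fold), whereas Jun Δmu replicate 1 lay within the range of the Jun f/f hearts for *Myl7* and just above it for *Myl4*. In this excess of replicate 2 over the mean of the other arrays, *Myl7* ranked 2 and *Myl4* ranked 3 of 45037 probe sets. Outside Jun Δmu replicate 2, *Myl7* lay near or below the array medians of 5.45 to 5.47. This limits what the size of its fold can show.

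Between the genotypes, *Myl7* differed by 1.87 (standard error 1.25) and the brighter *Myl4* probe set by 1.72 (standard error 0.91), with 95% intervals of -1.28 to 5.01 and -0.57 to 4.01, and neither passed (adjusted p = 0.898 and adjusted p = 0.896 from limma). Without Jun Δmu replicate 2 the differences were -0.18 for *Myl7* and 0.22 for *Myl4*. Without Jun Δmu replicate 1 they were 3.91 and 3.21, and both passed. The dimmer probe set of *Myl4* did not show the same excess. It stood at 5.59 and 5.73 in Jun Δmu hearts and at 5.16 and 5.54 in Jun f/f hearts, a difference of 0.31 that did not pass.

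Other atrial genes moved with these light chains in part. *Sln*, the sarcolipin that restrains the calcium pump of atrial muscle, stood at 4.10 and 8.11 on Jun Δmu replicates 1 and 2, against 3.81 and 4.15 in Jun f/f hearts, and ranked 1 in the excess of replicate 2. It was also the gene closest to *Myl7* in profile over the 4 arrays (distance 0.33), followed by *Myl4* (0.84), *Cilp* (2.22), *Hspa1b* (2.25) and *Hspa1a* (2.28). *Nppa*, the atrial natriuretic peptide, stood at 12.34 and 12.79 on Jun Δmu replicates 1 and 2, against 11.88 and 12.40 in Jun f/f hearts. *Dkk3* had 4.71 and 5.39 in Jun Δmu hearts against 4.36 and 4.68 in Jun f/f hearts, below the median of every array. *Bmp10*, a growth factor of the atrial wall, stayed between 6.51 and 6.64 on all arrays. Of the 6 atrial markers 0 passed, and the median difference was 0.33, with all 6 above 0. Their summed signal, on the log2 scale, was 12.51 and 12.95 in Jun Δmu hearts and 12.07 and 12.54 in Jun f/f hearts, and *Nppa* alone made up 87.6% to 91.1% of it on each array. The sum of the other 5 was 9.32 and 9.76 in Jun Δmu hearts and 9.07 and 9.05 in Jun f/f hearts. These sums and shares are of signal and not of RNA amount, as signals of different probe sets cannot be ranked against each other. The brightest of these 5 on every array was *Stard10*. It had 8.82 and 8.63 on Jun Δmu replicates 1 and 2, against 8.52 and 8.45 in Jun f/f hearts, and so was highest on replicate 1. *Sln* on Jun Δmu replicate 1 lay within the range of the Jun f/f hearts, and outside Jun Δmu replicate 2 it lay below the array medians. The part that atrial tissue in the sample plays in the values of *Myl7* and *Myl4* was not tested. In whole hearts more atrial tissue and more RNA of these genes per cell cannot be told apart.

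**Figure D3:**
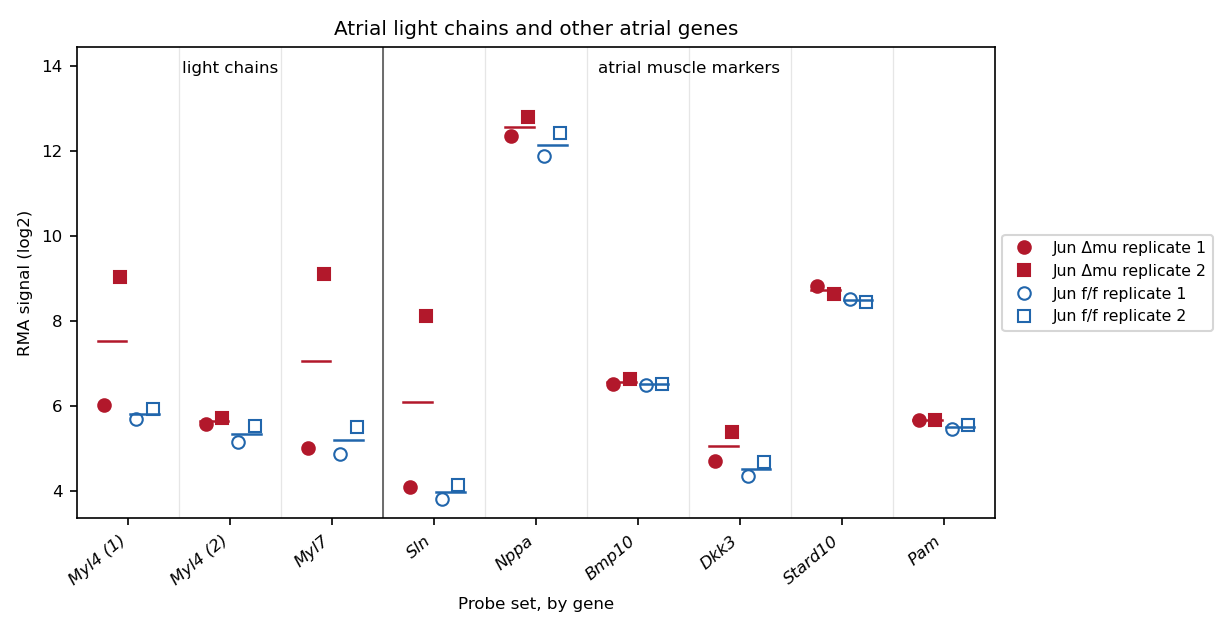
RMA signal (log2) on each array of the atrial light chains Myl4 and Myl7, left of the line, and of 6 further atrial genes by their brightest probe set, with symbols as for the members. Sln joins Myl7 and the brighter Myl4 probe set in being high on Jun Δmu replicate 2 alone, at 8.11 against 4.15 or less, and Bmp10, Stard10 and Pam do not.

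The ventricular light chains lay together on all 4 arrays. *Myl2* stood at 14.80 and 14.84 in Jun Δmu hearts and at 14.83 and 14.82 in Jun f/f hearts. The difference was -0.01, with a 95% interval of -0.22 to 0.21, or 0.857-fold to 1.15-fold. The 3 probe sets of *Myl3* differed by -0.07, -0.02 and -0.06, and the brightest had 14.67 and 14.69 in Jun Δmu hearts against 14.78 and 14.72 in Jun f/f hearts. It was the 1 member probe set that was lower on both Jun Δmu arrays. Its interval ran from -0.29 to 0.15. The highest signal on any array was 14.87, so *Myl2* and *Myl3* lie at the top of the range, where a difference in RNA may show only in part. Whether these probe sets were saturated was not tested.

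The windows before *Myl7* and *Myl3* are shown because both hold a CArG box, a site of the serum response factor, while the atrial gene varied between hearts and the ventricular one did not. Capitals mark an E-box first and the CArG box second, from the same table and build:
Myl7, chr11:5898783-5899032, minus strand: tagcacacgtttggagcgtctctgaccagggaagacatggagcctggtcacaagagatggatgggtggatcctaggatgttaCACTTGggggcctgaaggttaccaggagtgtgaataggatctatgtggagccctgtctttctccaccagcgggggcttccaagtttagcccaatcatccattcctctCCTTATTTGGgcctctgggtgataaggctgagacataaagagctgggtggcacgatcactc
Myl3, chr9:110763428-110763677, plus strand: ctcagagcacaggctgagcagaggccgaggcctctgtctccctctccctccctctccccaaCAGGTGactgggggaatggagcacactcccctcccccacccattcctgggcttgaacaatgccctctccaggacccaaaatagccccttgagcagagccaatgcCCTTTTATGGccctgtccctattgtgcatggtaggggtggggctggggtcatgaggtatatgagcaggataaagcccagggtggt

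A CArG box was in 3 of the 12 member windows, those of *Myl3*, *Myl7* and *Myl6*, and in 1.47% of all windows. Its first base was at -61 from the start in *Myl7*, at -85 in *Myl3* and at -50 in *Myl6*. No MEF2 match was in any of the 12, and 2.92% of all windows hold one.

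None of the light chains of smooth and non-muscle myosin passed. *Myl6* had 7.84 and 8.05 in Jun Δmu hearts and 7.86 and 8.09 in Jun f/f hearts, with replicate 1 below replicate 2 in each genotype. The difference was -0.03, with a 95% interval of -0.35 to 0.28. The 2 probe sets that *Myl6* shares with *Gm8894* and *Gm5526*, outside the 13, differed by -0.05 and -0.01. *Myl6b* had 5.29 and 5.32 in Jun Δmu hearts against 5.30 and 5.34 in Jun f/f hearts, near the array medians. Of the related regulatory chains, 3 of 5 listed names were measured and 0 passed, with *Myl9* of smooth muscle at -0.18 and *Myl12b* of non-muscle myosin at -0.09, and a median difference of -0.09.

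Neither kinase passed. *Mylk3*, which phosphorylates the ventricular regulatory light chain, had 12.48 and 12.56 in Jun Δmu hearts and 12.48 and 12.41 in Jun f/f hearts. The difference was 0.07, with a 95% interval of -0.15 to 0.30. *Mylk2* had 5.51 and 5.48 in Jun Δmu hearts against 5.41 and 5.36 in Jun f/f hearts. The difference was 0.11, with an interval of -0.11 to 0.33. For both kinases each Jun Δmu array was the higher one, by amounts below 1.3-fold. This order held for 17.3% of all probe sets. In all, the intervals of 8 of the 13 member probe sets lay within 1.3-fold in either direction, those of *Myl2*, *Myl3*, *Myl6*, *Myl6b*, *Mylk2* and *Mylk3*. These 8 varied by 0.03 to 0.25 over the 4 arrays. The share of all probe sets with such an interval was not counted, so the 8 are no result about the members. *Myl2* and *Myl3* lie at the top of the range and *Myl6b* and *Mylk2* near the array medians, which limits what a difference can show.

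**Figure D4:**
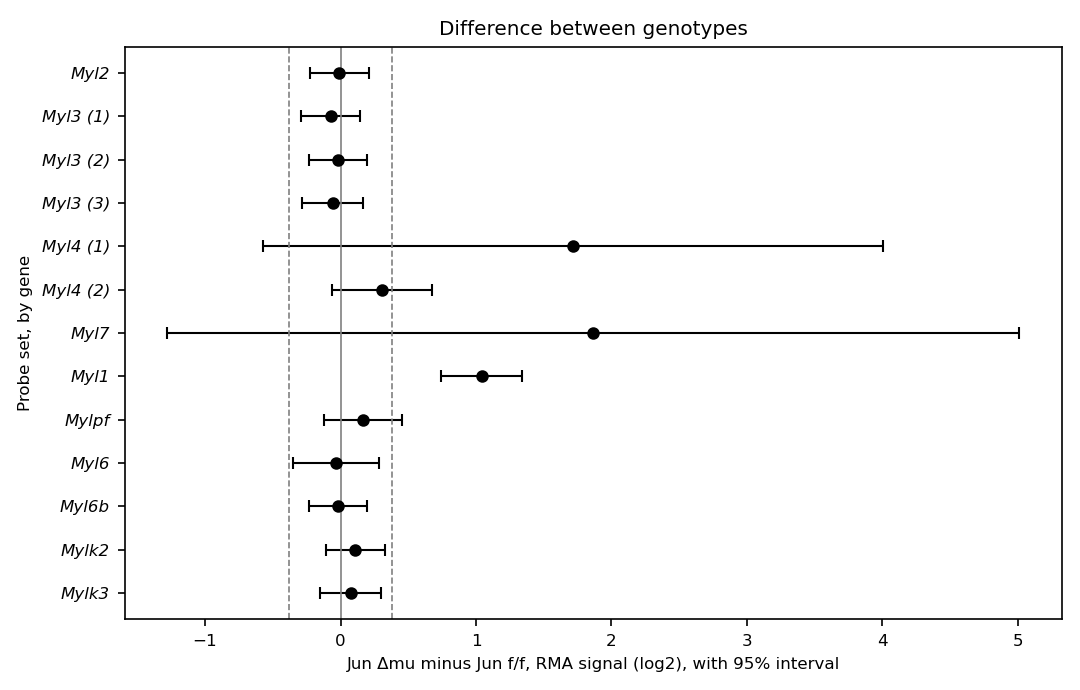
Difference in RMA signal (log2), Jun Δmu minus Jun f/f, of the 13 member probe sets, with the 95% interval from limma; dashed lines mark 1.3-fold in either direction. The interval of Myl1, 0.75 to 1.34, lies wholly above 1.3-fold, those of Myl7 and the brighter Myl4 probe set are the widest, and 8 lie wholly between the dashed lines.

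Signals of different probe sets cannot be ranked against each other on an array, so the classes were compared by how far each probe set lay from its own mean over the 4 arrays, averaged over a class and with no test. The atrial class (3 probe sets) stood at -0.55 and 1.85 on Jun Δmu replicates 1 and 2 and at -0.85 and -0.44 in Jun f/f hearts. The fast skeletal class (2 probe sets) stood at 0.28 and 0.33 in Jun Δmu hearts against -0.43 and -0.18 in Jun f/f hearts, most of it from *Myl1*. The ventricular class (4 probe sets) stood at -0.04 and 0.00 in Jun Δmu hearts against 0.03 and 0.01 in Jun f/f hearts. The class of smooth and non-muscle chains stood at -0.07 and 0.04 in Jun Δmu hearts against -0.06 and 0.08 in Jun f/f hearts, and the kinases at 0.03 and 0.06 against -0.02 and -0.07. Of the 5 classes, the fast skeletal class and the kinases had both Jun Δmu hearts above both Jun f/f hearts. In the fast skeletal class the groups overlapped for *Mylpf*. The ventricular class had both Jun Δmu hearts below, with a mean difference of -0.04. Over all single probe sets, both Jun Δmu arrays were the higher ones in 17.3% and the lower ones in 16.7%. No such share was taken for classes. Without the *Myl3* probe sets that may match other transcripts, the ventricular order was lost, at -0.03 and 0.01 in Jun Δmu hearts against 0.01 and 0.00 in Jun f/f hearts.

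Partners of the light chains were each read from the brightest of their probe sets. Of 12 measured myosin heavy chains 0 passed, with a median difference of -0.06. *Myh6*, the main heavy chain of the adult mouse heart, differed by -0.03. *Myh7*, the slow heavy chain, had 7.79 and 8.63 in Jun Δmu hearts against 9.17 and 8.68 in Jun f/f hearts, and *Myh11*, the smooth muscle heavy chain, differed by -0.42. These had the smallest p-values of the list, and neither passed. By quantitative RT-PCR, the paper reported lower *Myh7* in unstressed Jun Δmu hearts. Of 12 measured kinases, phosphatase subunits and regulators of light chain phosphorylation 0 passed, with a median of -0.02. The smooth muscle kinase *Mylk* had 8.58 and 8.60 in Jun Δmu hearts against 8.80 and 8.77 in Jun f/f hearts, and *Ppp1r12a*, the targeting subunit of myosin phosphatase, differed by -0.21. A dimmer probe set of *Mylk*, which the study had picked from these arrays, did pass as lower. It stood at 6.89 and 6.99 in Jun Δmu hearts against 8.03 and 7.21 in Jun f/f hearts, a difference of -0.68.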

How the data were processed

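Total RNA of 4 hearts, taken here as whole hearts, was hybridized to Affymetrix Mouse Genome arrays. The methods name the Affymetrix AGCC software for raw data and the submitters' processing notes name RMA and oligo, with versions not given in the sources used here. The values deposited by the authors are RMA signals on the log2 scale, with no detection calls. Without the 64 AFFX control probe sets, 45037 remained. Each was modelled on genotype alone with lmFit and eBayes of limma 3.58.1 (R 4.3.3), two-sided, and p-values were adjusted after Benjamini and Hochberg across the whole table. The 2 arrays per genotype and 2 residual degrees of freedom limit the precision, and no exact permutation test of 2 against 2 can go below p = 0.333. The methods name Student's test, which was run as an alternative. Genes were named from the platform annotation, and those in lists by the brightest probe set. Named were all members, the 5 genes closest in profile to *Myl1* and *Myl7* and, in the lists of heavy chains, of regulators of light chain phosphorylation and of smooth and non-muscle regulatory chains, genes that passed or the 2 with the smallest p. *Myh6* and the marker genes of tissues and cell types given with values were chosen outside this rule, after their values were seen. Members, lists and tests were chosen with earlier results of these data known. Promoter windows and neighbours came from RefSeq tables on GRCm38.p6. The fit was tested on simulated data. Figures were drawn with matplotlib 3.10.9.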

Additional observations from a re-analysis of the deposited data

How the results depend on the processing

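*Myl1* passed as higher, and no member passed as lower, under each alternative run: the methods' t-test, the replicate number as a block, quantile normalization, median centring, a trended robust prior, a table without its dimmest 40% of probe sets, and leaving out each array in turn. With the replicate block 1 member passed and 683 of all probe sets did, against 688 without it, and no member's call changed. The replicate numbers are not known to pair the hearts (the correlation of the differences between replicates 1 and 2 in the 2 genotypes was 0.03). Over the single arrays left out, 1 to 3 members passed as higher: *Myl7* and *Myl4* joined without Jun Δmu replicate 1, and the dimmer *Myl4* probe set, at 0.49, without Jun f/f replicate 2. The count over all probe sets, 688, was 200 with the methods' t-test, 463 without dim probe sets and 739 to 3452 with an array left out, the highest without Jun f/f replicate 2. The count at an adjusted p under 0.05 was 0 in each of these fits. A lone array of a genotype was assumed to vary like the other group.

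Small differences changed sign. With quantile normalization *Myl2* stood at 0.0171 and *Myl6* at 0.00506. With an array left out, *Myl2* ranged from -0.0253 to 0.00923, the middle *Myl3* probe set from -0.0394 to 0.00211, *Myl6* from -0.15 to 0.0843, *Myl6b* from -0.0431 to 0.00599 and *Myl7* from -0.18 to 3.91. Without the *Myl3* probe sets that may also match other transcripts (_s_at and _x_at), the ventricular class stood at 0.00859 on Jun f/f replicate 1, against 0.0338 with them, and Jun Δmu replicate 2, at 0.0123, was no longer below the Jun f/f hearts. Summarised by the median of their probe sets, *Myl3* and *Myl4* kept their direction and did not pass. The signal of *Mylpf*, *Myl6b* and *Mylk2*, near the array medians, and of *Myl2* and *Myl3*, at the top of the range, limits what a difference can show. The same holds for the dimmer *Myl4* probe set, and for *Myl7* outside Jun Δmu replicate 2, both near the array medians.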

Other observations

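Marker genes of the other cells of the heart were counted in the same way, by the brightest probe set of each gene. Of 6 smooth muscle genes 0 passed as higher and 1 as lower, *Cnn1*, at 4.67 and 5.11 in Jun Δmu hearts against 5.81 and 5.31 in Jun f/f hearts. The median difference of these 6 was -0.38, and 1 of them, *Smtn*, was above 0. Of 5 fibroblast, 4 endothelial and 3 leukocyte genes 0 passed, with median differences of 0.00, -0.14 and -0.06. Of the fibroblast genes, *Lum* (0.32) and *Col1a1* (0.21) were higher on both Jun Δmu arrays, an order that held for 17.3% of all probe sets. The groups overlapped for *Col1a2*, *Dcn* and *Pdgfra*. By quantitative RT-PCR, the paper reported more *Col1a1* in Jun Δmu hearts already at baseline. Of 8 genes of working heart muscle 0 passed, with a median of -0.02.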
